A study of Mus musculus with 3 samples.

Results

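Mmp7-high epithelial cells were examined among single cells of 3 pancreatic tumours of mice of the strain KPf/fC. Cells were chosen by their UMI counts (a UMI, or unique molecular identifier, marks 1 captured RNA molecule). A cell was kept with at least 500 genes and at most 20% of its UMIs from mitochondrial genes. It was called epithelial with at least 1 UMI of Epcam, at least 1 of Krt18 and at most 2 of Dcn and Col3a1 together. Cells with the gastric genes Gkn1 and Gkn2 at 10 or more per 10000 UMIs, or with more than 1 UMI of Muc6 or of Muc5ac, were set aside, and an Mmp7-high cell then had at least 2 Mmp7 UMIs. This gave 2379 Mmp7-high cells among 7247 gated epithelial cells, out of 19302 kept cells and 19576 cell barcodes in all. Barcodes carrying the suffix 1, 2 or 3 for their tumour gave 295, 322 and 1762 Mmp7-high cells. The same gate held 1464, 1392 and 1338 cells with no Mmp7 UMI (Mmp7-0 cells) and 149, 146 and 379 cells with a single Mmp7 UMI.

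The 3 samples, KPC tumour 1 to 3, share the strain label KPf/fC, and no other genotype, treatment or time was compared. KPf/fC is a short name for mice with a genetically engineered pancreatic tumour; the labels give the name alone, and the sources used here give no age or sex. Tumour cells negative for the immune marker CD45, the endothelial marker CD31 and the fibroblast marker PDGFRa had been sorted, so shares of cells below refer to that sort and not to a whole tumour. Each tumour gave 1 droplet library of RNA 3' ends, and nothing in the labels says whether the tumours came from separate animals, so p-values measure the spread between these 3 samples.

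MMP7, or matrilysin, is a small secreted matrix metalloproteinase that is made by epithelial cells rather than by stroma. It cleaves matrix proteins, adhesion molecules and membrane-anchored growth factors, and in the mouse intestine it activates the defensins of Paneth cells. In the pancreas it is known from duct-like metaplasia and from carcinoma. The other genes that mark these cells are also mostly secreted: Lcn2 encodes lipocalin 2, which withholds siderophore-bound iron from bacteria, Dmbt1 a scavenger receptor shed onto mucosal surfaces, Sftpd the collectin surfactant protein D, and Akr1b7 an aldo-keto reductase.

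The Mmp7 promoter is shown because Mmp7 chose the cells, and those of Ifit1 and Isg15 because these interferon-stimulated genes differed in the comparison that follows. Sequences are from RefSeq, build GRCm38.p6, read 5′ to 3′ on the gene's own strand and ending at the base before an annotated start. Mmp7 lies on the plus strand at chr9:7691940-7692089, Ifit1 on the plus strand at chr19:34640769-34640888 and Isg15 on the minus strand at chr4:156200819-156200938. Capitals mark in Mmp7 an AP-1 site (searched as TGANTCA) and a TATA box (TATAAA), and in Ifit1 and Isg15 the interferon-stimulated response element (GAAA and again GAAA with a pair of free bases between them, either strand, overlapping matches included).
Mmp7: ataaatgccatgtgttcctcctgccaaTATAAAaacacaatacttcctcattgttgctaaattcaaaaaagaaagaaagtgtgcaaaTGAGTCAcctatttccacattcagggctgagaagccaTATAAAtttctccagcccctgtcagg
Ifit1: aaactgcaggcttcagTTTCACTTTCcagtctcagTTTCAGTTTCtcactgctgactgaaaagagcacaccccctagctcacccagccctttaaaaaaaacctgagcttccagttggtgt
Isg15: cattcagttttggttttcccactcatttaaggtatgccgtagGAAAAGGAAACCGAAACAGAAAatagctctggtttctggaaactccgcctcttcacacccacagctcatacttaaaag

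RefSeq lists a further Mmp7 start at position 7692341, with 0 AP-1 and 0 TATA matches before it; the sequence shown precedes the start at 7692090. The AP-1 match there begins 63 bases before that start, and the TATA boxes begin 123 and 26 bases before it. In the 250 bases before the start, an AP-1 match was present in 6.75% of 32851 mouse promoters, the TATA box in 12.4% and the interferon element in 2.98%. Promoter entries existed for 3 of the 5 marker genes (Mmp7, Lcn2 and Akr1b7), and the AP-1 letters occurred in 1 of them. A match describes the letters only.

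Mmp7-high cells were a minority of gated epithelial cells in tumours 1 and 2 and close to an even share in tumour 3. Their share was 15.5% in tumour 1 (exact binomial 95% interval 13.9 to 17.2%), 17.3% in tumour 2 (15.6 to 19.1%) and 50.6% in tumour 3 (49.0 to 52.3%), with a mean of 27.8 ± 19.8% (SD, n = 3). These intervals cover counting error only. Tumour 3 stood apart from the other two, whose intervals overlapped. With cells of at least 3000 UMIs thinned to 3000 before gating, the shares were 9.03%, 9.96% and 42.6%, in the same order. The gate limits were applied anew to the thinned counts, so its cells changed too. It then held 2049, 1777 and 3303 cells, against 1908, 1860 and 3479 without thinning. The Mmp7 count per member cell also differed: its median was 4, 5 and 11 UMIs and its maximum 38, 51 and 132 UMIs in tumours 1 to 3. Cells with 10 or more Mmp7 UMIs numbered 50, 82 and 951.

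**Figure D1:**
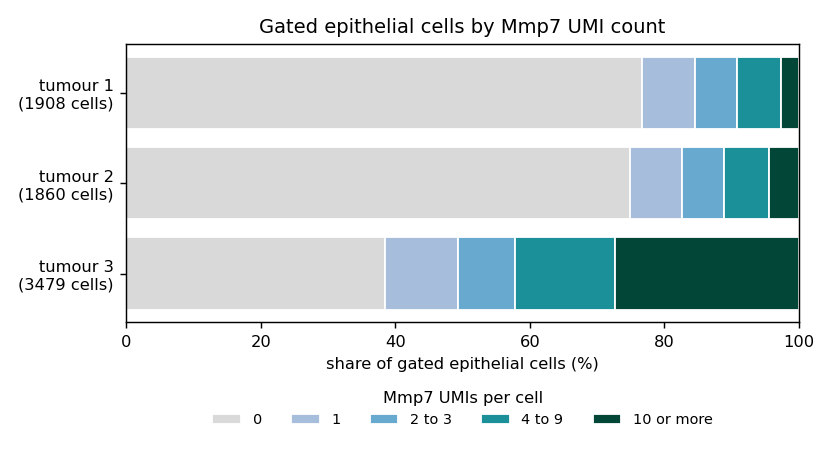
Gated epithelial cells of each tumour by their number of Mmp7 UMIs (0, 1, 2 to 3, 4 to 9, 10 or more), as a share of 1908, 1860 and 3479 cells in percent. Cells with at least 2 UMIs make up 15.5%, 17.3% and 50.6%, and the class of 10 or more UMIs is widest in tumour 3.

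Free Mmp7 RNA in the droplets was gauged in stromal cells, defined by no Epcam UMI and at least 10 UMIs of Dcn and Col3a1 together. At least 2 Mmp7 UMIs were seen in 0.0573% of 1744 stromal cells of tumour 1 and in 0.835% of 2037 in tumour 3. In tumour 2 the count was 0 of 1529 cells, which allows a share of up to 0.196% (3 counts of the total). With both populations thinned to 3000 UMIs, at least 1 Mmp7 UMI was present in 0.660%, 1.11% and 4.57% of stromal cells against 16.6%, 18.1% and 53.6% of gated epithelial cells. The Mmp7-high share of epithelial cells was therefore above this background in each tumour, and the background was itself largest in tumour 3. Of all cells with at least 2 Mmp7 UMIs, 80.8%, 85.9% and 87.2% lay inside the gate. Among the gastric-type epithelial cells that the gate set aside, 3.75%, 7.79% and 22.1% had at least 2 Mmp7 UMIs.

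The 3 libraries held 53162622 to 67262634 UMIs, with a median of 6025 to 9052 UMIs per barcode. Mmp7-high cells were shallower than Mmp7-0 cells, with medians of 7812, 7682.5 and 6675.5 UMIs against 9518, 8823 and 7610.5. The Mmp7-0 cells were thus not the less deeply read group. Apart from this, a cell with 0 Mmp7 UMIs is not a cell shown to lack Mmp7, since RNA can be missed at any depth. Members shared 0 to 2 barcodes between any pair of tumours.

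The other marker genes were more abundant in the Mmp7-high cells of each tumour. They were chosen with these data in view and are described without a test. Levels are CPM, the UMIs of a gene per 1000000 UMIs, of all cells of a group summed within a tumour, given for tumours 1, 2 and 3 in that order. Lcn2 was at 3046, 1689 and 5580 CPM in Mmp7-high cells and at 451, 153 and 378 CPM in Mmp7-0 cells, which is 6.75-, 11.01- and 14.8-fold higher. Dmbt1 was at 1917, 2236 and 3088 CPM against 742, 449.7 and 495 CPM. The groups did not overlap for either gene. Sftpd was at 163, 229 and 197 CPM against 44.3, 33.1 and 38.4 CPM, again without overlap. Akr1b7 was at 92.8, 92.1 and 289 CPM against 40.6, 17.5 and 93.7 CPM; it was higher within each tumour, but the Mmp7-0 cells of tumour 3 lay slightly above the Mmp7-high cells of tumours 1 and 2.

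**Figure D2:**
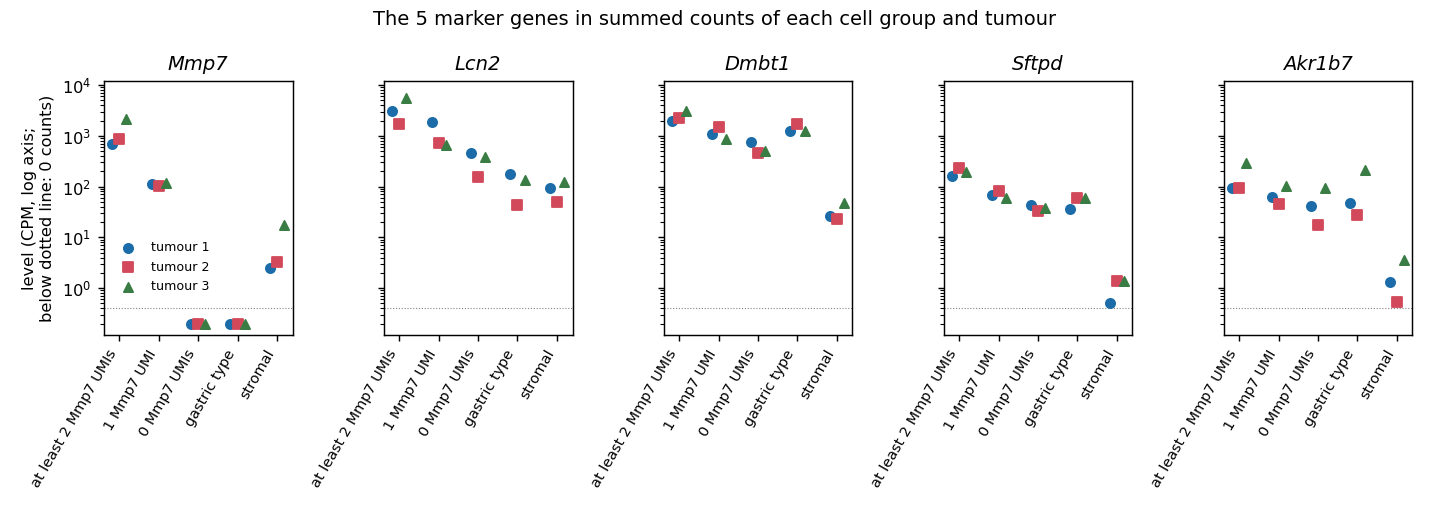
Level (CPM, log axis) of the 5 marker genes in the summed counts of Mmp7-high cells, cells with a single Mmp7 UMI, Mmp7-0 cells, gastric-type cells with no Mmp7 UMI and stromal cells, with 1 point per tumour. Lcn2 and Sftpd are highest in the Mmp7-high group of each tumour, while Dmbt1 in gastric-type cells (1272, 1731 and 1249 CPM) comes close to it.

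Detection per cell was compared at equal depth. From here on, gastric-type cells are only those with no Mmp7 UMI. At 3000 UMIs per cell, 65.4%, 62.7% and 81.3% of Mmp7-high cells had an Lcn2 UMI, against 24.8%, 14.01% and 28.6% of Mmp7-0 cells and 15.4%, 8.04% and 18.9% of stromal cells. Without thinning the Lcn2 shares were 76.9%, 72.4% and 88.6% in Mmp7-high and 38.3%, 22.8% and 46.3% in Mmp7-0 cells; thinning left out 103 Mmp7-high cells, all of tumour 3. The thinned Lcn2 share of Mmp7-0 cells was thus much nearer to that of stromal cells than to that of Mmp7-high cells. Sftpd was detected in 37.3%, 42.2% and 39.5% of Mmp7-high cells, in 11.5%, 8.69% and 9.41% of Mmp7-0 cells and in 0 of 1744 (which allows up to 0.172%, again 3 counts of the total), 0.392% and 0.468% of stromal cells. Dmbt1 was common in gastric-type cells too: its share was 52.5%, 68.0% and 74.1% in Mmp7-high cells and 68.9%, 65.4% and 59.0% in gastric-type cells, so in tumour 1 the order was the reverse of that of its CPM. Akr1b7 was detected in 14.2%, 13.04% and 32.2% of Mmp7-high cells, in 8.13%, 3.88% and 11.7% of Mmp7-0 cells and in 8.64%, 4.88% and 31.95% of gastric-type cells, with hardly any difference from the latter in tumour 3. In co-detection, at least 2 of Lcn2, Dmbt1, Sftpd and Akr1b7 were found together in 55.3%, 62.4% and 75.8% of Mmp7-high cells, in 21.2%, 12.9% and 20.4% of Mmp7-0 cells and in 23.1%, 18.05% and 41.7% of gastric-type cells. All 4 were found together in 4.07%, 4.97% and 12.1% of Mmp7-high cells.

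Values just outside and just inside the threshold differed by gene. Cells with a single Mmp7 UMI, just outside the rule, had Lcn2 at 1864, 729 and 651 CPM, and cells with exactly 2 UMIs, just inside it, at 2338, 1278 and 1624 CPM. Sftpd went from 67.6, 80.3 and 59.2 CPM to 119, 152 and 120.04 CPM over the same step. For both genes these classes lay above the Mmp7-0 cells. Reg3g went from 333, 416 and 83.8 CPM to 310, 889 and 157 CPM, lower in tumour 1 and higher in the others. Vim went from 404, 572 and 569 CPM to 67.2, 70.6 and 362 CPM, a wide step in tumours 1 and 2. Across the 5 classes of Mmp7 count (0, 1, 2 to 3, 4 to 9, 10 or more), Lcn2, Sftpd and Cd14, the lipopolysaccharide co-receptor, were higher at each step in all 3 tumours. Lcn2 went in this order from 378 through 651, 2046 and 3787 to 7459 CPM in tumour 3. Dmbt1, Akr1b7, Reg3g and Spp1 were higher at each step in 2 tumours, and Hmga2 was lower at each step in 2. Classes hold 50 to 1464 cells, share their libraries and were chosen by Mmp7, so these are descriptions with no test.

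**Figure D3:**
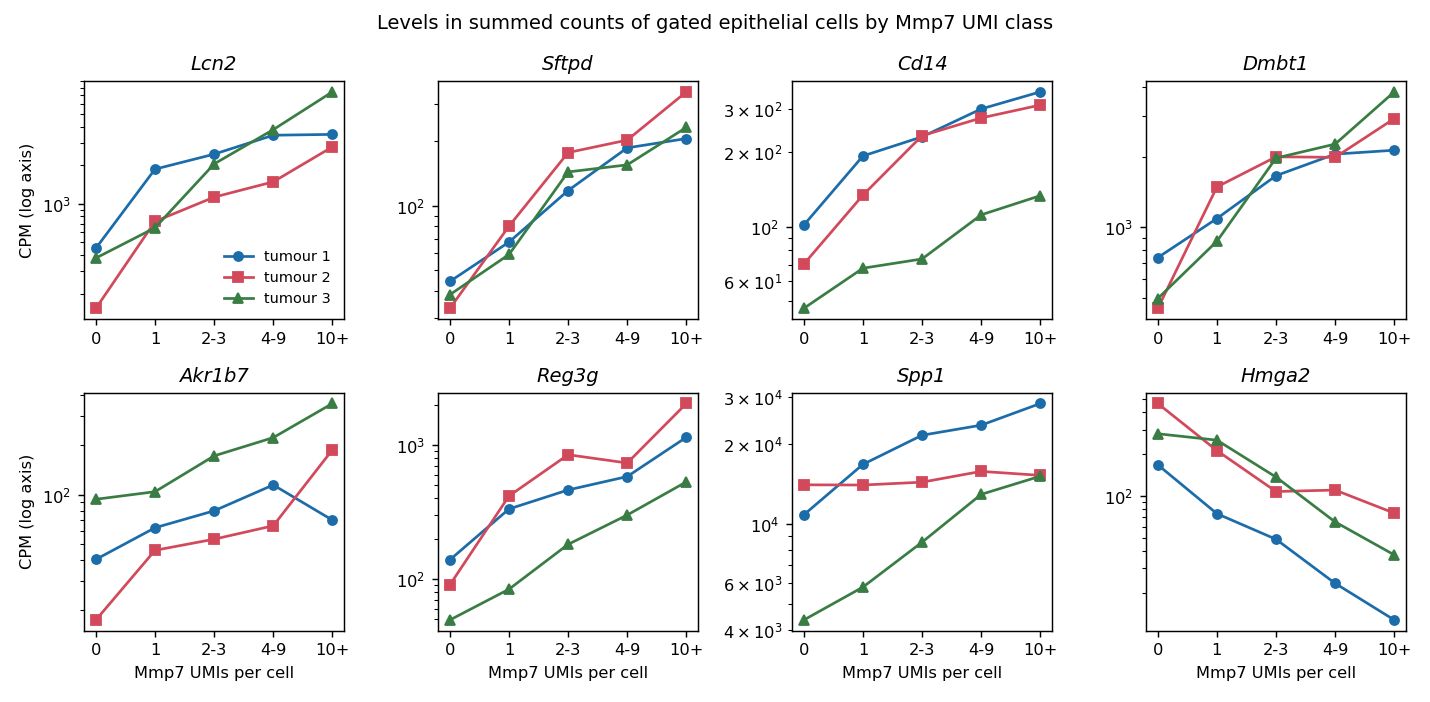
Level (CPM, log axis, a scale of its own in each panel) of 8 genes in the summed counts of gated epithelial cells with 0, 1, 2 to 3, 4 to 9 and 10 or more Mmp7 UMIs, with 1 line per tumour. Lcn2, Sftpd and Cd14 are higher at each step in the 3 tumours, and Hmga2 goes from 168, 464 and 281 CPM in cells with 0 UMIs to 12.8, 75.1 and 37.6 CPM in cells with 10 or more.

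The genes whose counts went most closely with Mmp7 across single gated cells with at least 3000 UMIs were found by Pearson's r of log2 counts per 10000 plus 1, taken within each tumour and averaged over the 3 tumours, among 8245 genes. Lcn2 came first with a mean r of 0.531, followed by Reg3g (0.391), Sftpd (0.389), Dmbt1 (0.359), the sodium pump subunit Atp1b1 (0.358), Lrg1 (0.346), Cd14 (0.345), Reg1 (0.318), Spp1 (0.317) and Reg3b (0.317). Akr1b7 was at rank 49 with 0.205. Hmga2 (-0.317) stood at the other end. The values are across 1908, 1860 and 3288 cells that share a library and, within it, differences in depth.

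The gate was checked against markers of ducts and of other cell types. Krt19, the classical duct keratin, was detected without thinning in 95.3%, 97.2% and 95.5% of Mmp7-high cells. The shares were 92.8%, 88.4% and 85.4% in Mmp7-0 cells and 94.8%, 98.5% and 93.1% in gastric-type cells. Most cells of each group thus held Krt19, with the lowest share in the Mmp7-0 cells of each tumour. Krt19 was also among the duct genes called higher over Mmp7-0 cells in the comparison below. Of 10 Paneth cell markers, 6 were at 0 in the Mmp7-high cells, among them the defensins Defa5, Defa17 and Defa24, yet the list summed to 412 to 1109 CPM against 49.94 to 139 CPM in Mmp7-0 cells, with Reg3g as its single tested gene and called higher. Of 10 airway secretory markers, 5 were at 0, among them the club cell gene Scgb1a1 and the surfactant genes Sftpa1 and Sftpb. That list summed to 1044 to 1943 CPM against 954 to 1956 CPM, mostly from Wfdc2, and none of its 4 tested genes was called. Markers of immune cells, a known source of Lcn2, were low. The summed neutrophil markers were at 1.07 to 2.85 CPM (Mmp7-0 cells 0.981 to 7.82) and the summed T and natural killer markers at 0.611 to 0.767 CPM (1.07 to 2.51). The macrophage list summed to 131 to 289 CPM against 54.2 to 146 CPM, but this was mostly Cd14 (282, 269 and 118 CPM), and the macrophage genes Adgre1 and C1qb were at 0.

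The comparison with Mmp7-0 cells asked what else differs within the same epithelial gate. Summed counts of both groups in the 3 tumours were fitted with edgeR's quasi-likelihood test, with the tumour as a block and p-values adjusted over all tested genes by Benjamini and Hochberg; 1752 of 13289 genes (13.2%) were called below 0.05. Of these, 772 genes (5.81%) were higher in Mmp7-high cells and 980 (7.37%) lower, and log2 fold changes had a median of 0.01 over the whole table. Without tumour 2 the calls fell to 636 of 12910 genes (262 higher and 374 lower), without tumour 3 to 890, and without tumour 1 they came to 2826. The share of genes whose 3 levels did not overlap between the groups was 6.96% for higher and 7.68% for lower.

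The Mmp7-0 group was a mixture, and its makeup moved with many of the calls. At least 2 Vim UMIs, a mesenchymal marker, were present in 31.3%, 48.3% and 38.9% of Mmp7-0 cells but in 10.51%, 14.3% and 5.68% of Mmp7-high cells. Cells with 1% or more of their UMIs from acinar genes made up 3.76%, 0.359% and 3.44% of Mmp7-0 cells and 0.339%, 0.621% and 1.14% of Mmp7-high cells. A stricter comparison, added after these values were seen, therefore left out cells with at least 2 Vim UMIs, with 1% or more acinar UMIs, or with at least 3 UMIs of endocrine or of goblet genes. That left 261, 271 and 1640 Mmp7-high and 938, 706 and 764 Mmp7-0 cells, and 634 of 11990 genes were called, 301 higher and 333 lower. Results below give the comparison of all gated cells first and this stricter comparison where it ended a call. Fewer genes were called over the whole table in the stricter comparison and without tumour 2. A smaller list count there is therefore not by itself a result about the list. Fold changes are log2 (Mmp7-high over Mmp7-0) ± SE, with n = 3 tumours, and levels are CPM. The SE is the absolute log2 fold change over the square root of edgeR's quasi-likelihood F. It is not the spread of 3 single tumour values.

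In the list of antimicrobial and mucosal defence genes, 7 of 17 tested were higher and 2 lower, against 5.81% and 7.37% of all tested genes. Reg3g, a C-type lectin that kills Gram-positive bacteria, was at 635, 1109 and 411 CPM in Mmp7-high cells and at 139, 90.4 and 49.4 CPM in Mmp7-0 cells (log2 fold change 2.94 ± 0.25, adjusted p = 0.00033). Its levels did not overlap between the groups. Reg3b, its close paralog, was at 3653, 2396 and 1335 against 1817, 407 and 593 CPM (1.55 ± 0.27, adjusted p = 0.007), with the Mmp7-0 cells of tumour 1 inside the Mmp7-high range. Slpi, a secreted inhibitor of leukocyte proteases, was at 86.7, 59.9 and 63.1 against 34.6, 26.2 and 35.5 CPM without overlap (1.09 ± 0.12, adjusted p = 0.00092). Pglyrp1, a peptidoglycan recognition protein, was also higher (711, 1431 and 882 against 392, 459 and 399 CPM). Ltf, the iron-binding lactoferrin, was highest in tumour 2 (146, 959.9 and 225 against 83.3, 142 and 30.7 CPM, 2.16 ± 0.37, adjusted p = 0.0066) and lost its call without that tumour (adjusted p = 0.053). In the stricter comparison 6 of 13 tested genes of the list were higher and 0 lower. Reads of Reg3a, Reg3b, Reg3g and Reg1 could be split between these similar genes by the authors' counting.

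Of 14 tested complement genes, a family better known from the liver, 6 were higher and 0 lower (4 of 12 in the stricter comparison, and 4 of 14 without tumour 2). Over all tested genes 5.81% were higher and 7.37% lower. C3, the central component, was at 322, 84.9 and 69.1 CPM against 69.7, 16.1 and 20.1 CPM (2.102 ± 0.13, adjusted p = 7e-05). Tumour 1 held the highest level in both groups, and its Mmp7-0 cells were at the level of the Mmp7-high cells of tumour 3. C4b was at 95.5, 36.4 and 46.6 against 33.3, 5.99 and 11.1 CPM (1.98 ± 0.20, adjusted p = 0.00062). The regulator Cfi was higher as well (168, 149.5 and 94.2 against 105, 33.4 and 30.9 CPM). Lrg1, a glycoprotein of the acute phase, was at 218, 113 and 161 against 83.4, 14.9 and 21.6 CPM (2.35 ± 0.30, adjusted p = 0.0017), without overlap. Crp, C-reactive protein, was at 51.4, 26.05 and 3.05 against 11.4, 5.22 and 0.178 CPM (2.33 ± 0.25, adjusted p = 0.00079), and was low in both groups of tumour 3. Pzp, a broad protease inhibitor related to alpha-2-macroglobulin, was at 9.97, 6.42 and 14.1 against 1.66, 1.39 and 0.977 CPM (2.87 ± 0.36, adjusted p = 0.0016). C3, C4b, Cfi, Lrg1, Crp and Pzp kept their calls in the stricter comparison and without each tumour in turn.

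Of the 18 duct and biliary markers, all tested, 11 were higher, 1 was lower and 6 were not called, against 5.81% higher and 7.37% lower of all genes. Their median log2 fold change was 0.84 against 0.01 for all genes. The stricter comparison had 7 higher and 1 lower, and 7 and 1 were called without tumour 2. Pkhd1, a protein of the duct cell cilium, was at 51.0, 23.2 and 20.6 CPM against 18.4, 4.80 and 6.66 CPM (1.72 ± 0.19, adjusted p = 0.00084), without overlap. It kept its call in the stricter comparison and without each tumour. Slc4a4, the bicarbonate transporter of the duct, was at 151, 137 and 229 against 82.8, 77.9 and 121 CPM (0.85 ± 0.11). Spp1, osteopontin, was higher (23602, 15126 and 13471 against 10832, 14038 and 4367 CPM, 0.93 ± 0.26, adjusted p = 0.047) and lost its call without tumour 3 (adjusted p = 0.37). The lower gene was Aqp1, a water channel of the duct, at 8.05, 4.996 and 7.94 CPM against 46.4, 32.7 and 25.5 CPM (-2.17 ± 0.23, adjusted p = 0.00065). Sox9 (247, 165 and 187 against 186, 194 and 164 CPM) was not called (adjusted p = 0.67), and Prom1, the surface protein CD133, was called (349.8, 387 and 391 against 234, 163 and 134 CPM, adjusted p = 0.0066) but not in the stricter comparison (adjusted p = 0.073) or without tumour 2 (adjusted p = 0.055).

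Junction proteins and epithelial transcription factors differed member by member. Among tight junction genes and keratins 4 of 15 were higher and 4 lower, against 5.81% and 7.37% of all tested genes. Cldn10, a paracellular ion channel, was at 107, 57.5 and 38.7 CPM against 37.8, 6.89 and 8.44 CPM (2.16 ± 0.26, adjusted p = 0.0014), while Cldn6, a claudin of embryonic epithelia, was at 107, 142 and 68.0 against 232, 241 and 196 CPM (-1.16 ± 0.14, adjusted p = 0.0016). Both differences held in the stricter comparison. Among AP-1, ETS and epithelial transcription factors 5 of 24 were higher and 2 lower, against 1 and 1 in the stricter comparison and 1 and 0 without tumour 2; Ehf, an epithelial ETS factor (176, 118 and 110.0 against 87.2, 55.9 and 66.2 CPM, 0.92 ± 0.11), kept its call in the stricter comparison, and Fosl1, an AP-1 subunit, was lower (8.44, 6.42 and 2.98 against 14.8, 15.5 and 8.97 CPM, -1.26 ± 0.21) but not called without tumour 2 (adjusted p = 0.055). Fos, Fosb, Jun and Junb, immediate-early AP-1 genes, were not called. Xbp1, the factor that equips secretory cells for protein folding, was at 250.4, 221 and 139 against 134, 83.2 and 71.1 CPM (1.07 ± 0.13, adjusted p = 0.0016), alone among 18 genes of the unfolded protein response to be higher.

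Among inflammatory signalling genes, where 5.81% of all tested genes were higher and 7.37% lower, the NF-kB list had 3 of 20 genes higher and 1 lower (1 and 0 of 19 without tumour 2), the chemokines 2 of 17 and 1 (0 and 0 without tumour 2), and the interleukin-1 family 0 of 9 and 2. Over all genes, 262 of 12910 were higher and 374 lower without tumour 2. The list of IL-6, IL-17 and IL-22 signalling had 4 of 15 higher (Il17re, Il6st, Osmr and Stat3) and 0 lower. In the stricter comparison 2 were higher, and 1 without tumour 2. Of 14 alternative settings, Stat3 lost its call in 7 and Osmr in 5, for both including DESeq2, matched depth and thinning. Il17re lost its call in 2 and Il6st in 0. Cd14 was at 282, 269 and 118 CPM against 101, 70.5 and 46.6 CPM (1.56 ± 0.14, adjusted p = 0.00033). Icam1, the adhesion molecule that leukocytes bind, was at 39.1, 34.3 and 41.0 against 20.3, 12.4 and 19.5 CPM (1.13 ± 0.15, adjusted p = 0.0021). Neither gene lost its call in the stricter comparison or without any tumour, and the levels of both did not overlap between the groups. Cxcl1, a neutrophil attractant, was not called (51.0, 13.2 and 21.8 against 26.4, 19.6 and 41.8 CPM), nor was the acute-phase gene Saa3 (43.3, 13.2 and 8.63 against 45.4, 14.6 and 8.89 CPM). Il6st, the shared receptor subunit gp130 of the IL-6 family, was at 38.0, 39.6 and 49.0 against 20.6, 23.3 and 26.7 CPM (0.83 ± 0.12, adjusted p = 0.0037), and Osmr, the oncostatin M receptor, was at 26.5, 28.2 and 25.1 against 15.9, 16.9 and 18.04 CPM (0.62 ± 0.14), losing its call without tumour 2 (adjusted p = 0.13) and without tumour 3 (adjusted p = 0.061). Il1a, an alarm cytokine, was lower (9.97, 8.92 and 4.047 against 18.1, 14.97 and 13.5 CPM, -1.19 ± 0.22), though not called without tumour 3 (adjusted p = 0.068).

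Most calls among interferon-stimulated genes were lost without tumour 2, as were most calls over all genes. In all 3 tumours together 11 of 23 tested genes of the interferon and MHC class I list were higher and 0 lower, against 5.81% and 7.37% of all tested genes. Ifit1, an antiviral RNA-binding protein whose promoter is printed above, was at 3.45, 21.4 and 0.305 CPM against 1.04, 2.51 and 0.178 CPM (2.41 ± 0.45, adjusted p = 0.0096), and Isg15, the ubiquitin-like protein, at 6.90, 49.2 and 1.22 against 4.17, 9.26 and 1.07 CPM (1.48 ± 0.39, adjusted p = 0.04). Tumour 2 held the high values of both genes. Without it 2 of 19 tested genes of the list were higher, against 262 of 12910 over all genes. The adjusted p was then 0.29 for Ifit1 and 0.61 for Isg15. The 2 genes left were Psmb8, an immunoproteasome subunit (53.3, 31.4 and 13.5 against 21.5, 5.01 and 6.93 CPM, 1.56 ± 0.27, adjusted p = 0.017 without tumour 2), and the class I gene H2-D1 (432, 239.8 and 316 against 194, 153 and 211 CPM, adjusted p = 0.031). Of 21 genes of the list with a promoter entry, 10 held the response element, namely 3 of the 10 that were called higher and 7 of the 11 others.

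In the RAS-MAPK list 6 of 17 were lower and 1 higher, with 5 and 0 in the stricter comparison and 3 and 1 without tumour 2. Over all tested genes 7.37% were lower and 5.81% higher. Areg, amphiregulin, was at 43.0, 30.0 and 19.6 CPM in Mmp7-high cells and at 112, 148 and 66.3 CPM in Mmp7-0 cells (-1.82 ± 0.16, adjusted p = 0.00037), and Ereg, epiregulin, at 1.92, 3.93 and 0.687 against 11.8, 16.4 and 5.69 CPM (-2.56 ± 0.28, adjusted p = 0.00084). Both are ligands of the EGF receptor, and neither overlapped between the groups. Another such ligand, Hbegf, was not called (349, 295 and 175 against 318, 541 and 240 CPM, adjusted p = 0.13). Myc (8.82, 13.2 and 6.49 against 18.1, 28.8 and 21.6 CPM, -1.36 ± 0.18) and Ccnd1, cyclin D1 (181, 217 and 89.4 against 270.1, 449 and 296 CPM, -1.14 ± 0.17), were the 2 lower genes among 15 Wnt and beta-catenin targets, where 1 was higher. Hmga2, a chromatin protein of embryonic and invasive cells, was at 31.4, 100.3 and 60.9 against 168, 464 and 281 CPM (-2.28 ± 0.12, adjusted p = 4.6e-05), without overlap. All 5 genes kept their calls in the stricter comparison and without each tumour. Genes of S phase were lower in 5 of 21 cases and of G2 and M phase in 8 of 22, but in 0 of 21 and 0 of 22 in the stricter comparison. At 3000 UMIs per cell, at least 3 UMIs of the G2 and M list were found in 3.73%, 6.52% and 8.198% of Mmp7-high cells and in 9.84%, 10.4% and 8.77% of Mmp7-0 cells, so tumour 3 differed little.

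**Figure D4:**
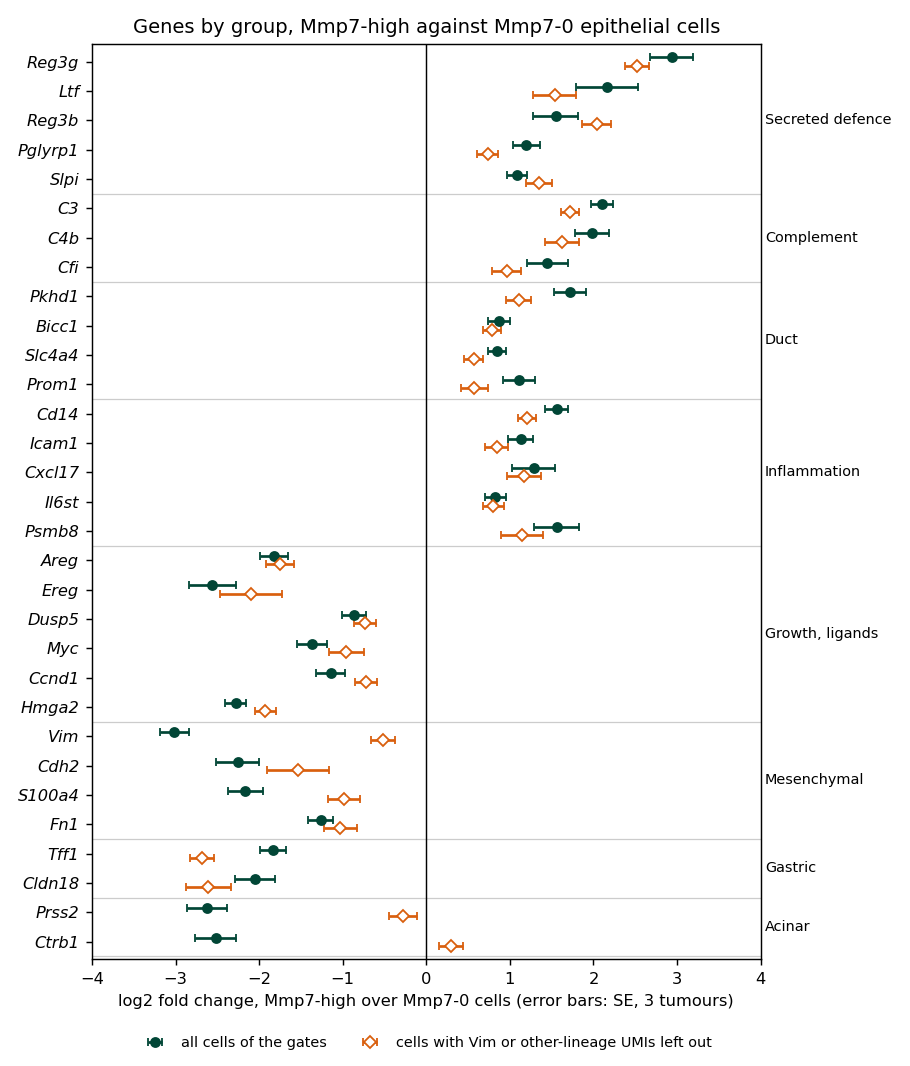
Log2 fold change (Mmp7-high over Mmp7-0 cells, edgeR) of genes grouped by role. Error bars are the SE derived from edgeR's F, with n = 3 tumours. Filled circles are all cells of the gates, and open diamonds leave out cells holding Vim or other-lineage UMIs. Reg3g, C3, Areg and Hmga2 hold their place, whereas Vim moves from -3.01 to -0.52 and Prss2 from -2.62 to -0.28. Vim and Prss2 were among the genes used to leave out cells.

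Of 20 genes of the epithelial-mesenchymal transition 12 were lower and 1 higher, against 4 of 19 and 0 in the stricter comparison and 8 of 20 and 0 without tumour 2. Over all tested genes 7.37% were lower and 5.81% higher. Vim, which the stricter comparison used to leave out cells, was at 123, 128 and 88.5 CPM against 642, 1256 and 861 CPM (-3.01 ± 0.18), and there at -0.52 with an adjusted p of 0.064. Fn1, fibronectin, was at 407, 577 and 397 against 721, 1305 and 1303 CPM (-1.26 ± 0.15, adjusted p = 0.0014). It kept its call in the stricter comparison, as did Cdh2 (N-cadherin) and S100a4. Whether the Mmp7-0 cells with Vim UMIs are tumour cells or another lineage with Epcam and Krt18 UMIs was not tested. Fewer cells with these UMIs and less RNA in each cell cannot be told apart in the summed counts.

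Hypoxia and glycolysis genes were mostly lower: 11 of 18 were lower and 1 higher, against 7.37% and 5.81% of all tested genes. The stricter comparison had 8 and 1, and 5 and 1 were called without tumour 2. Ndrg1, a hypoxia-responsive gene, was at 50.6, 37.8 and 39.6 CPM against 107, 108 and 72.2 CPM (-1.15 ± 0.15, adjusted p = 0.0019), and Slc2a1, the glucose transporter GLUT1, at 35.3, 49.96 and 19.2 against 70.0, 93.4 and 35.5 CPM (-0.94 ± 0.12, adjusted p = 0.0017). The groups did not overlap for Ndrg1. Car9, a carbonic anhydrase also known as a hypoxia target, went the other way (59.1, 79.6 and 69.9 against 29.8, 49.6 and 29.9 CPM, 0.95 ± 0.14, adjusted p = 0.0035). Among aldo-keto reductases (the gene family of Akr1b7) and NRF2 targets, 3 of 26 were higher and 5 lower. The 3 higher genes, Gsta3, Aldh1a1 and Cbr3, are not aldo-keto reductases. Gsta3, a glutathione transferase, was one of the higher ones (261, 158 and 266 against 133, 59.7 and 38.4 CPM, 1.69 ± 0.31) but missed the threshold in the stricter comparison (adjusted p = 0.085). Slc7a11, the cystine transporter, was lower in both (7.29, 3.21 and 8.25 against 14.7, 9.82 and 30.0 CPM, -1.58 ± 0.21), and Akr1c12 and Akr1c13, relatives of Akr1b7, were lower too.

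Acinar genes were lower in 7 of 11 cases, endocrine genes in 7 of 9 and goblet genes in 4 of 9, with none higher. Over all tested genes 7.37% were lower and 5.81% higher. The acinar protease gene Ctrb1 was at 380.1, 51.7 and 1602 CPM against 2578, 428 and 5444 CPM (-2.52 ± 0.25), and the endocrine gene Ghrl, ghrelin, at 0.767, 6.42 and 0.305 against 14.8, 509 and 0.444 CPM, nearly all of it in tumour 2. In the stricter comparison acinar genes were lower in 0 of 7 cases and higher in 1. Endocrine genes were lower in 0 of 1 there, and goblet genes were lower in 1 of 7 and higher in 1. That comparison left out cells by UMIs of these same acinar and endocrine lists and of the goblet genes Muc2, Zg16 and Clca1. The loss of lower calls in these lists therefore follows at least in part from the gate. Ctrb1 and Ghrl were not called there (adjusted p = 0.31 and 0.88), and both had log2 fold changes above 0 (0.30 and 0.23). Of 10 gastric foveolar genes tested, 3 were lower (Tff1, Cldn18 and Sytl2), 1 was higher (Sult1c2) and 6 were not called. Tff1, a trefoil peptide of gastric surface cells, was at 346, 222 and 343 against 1520.1, 753 and 1001 CPM (-1.83 ± 0.15, adjusted p = 0.00027), and Cldn18, the gastric claudin, at 3.07, 11.1 and 32.9 against 12.8, 23.7 and 188 CPM (-2.05 ± 0.24, adjusted p = 0.0013). In the stricter comparison their log2 fold changes were -2.68 ± 0.14 and -2.61 ± 0.27. Tuft cell genes split: Dclk1, a kinase used to mark tuft and progenitor cells, was higher (88.6, 54.6 and 21.9 against 41.2, 25.7 and 14.9 CPM, 0.90 ± 0.13), while Avil (3.84, 4.996 and 4.51 against 12.8, 9.26 and 14.4 CPM, -1.48 ± 0.24), Alox5ap, Sh2d6 and Ltc4s were lower, and the tuft genes Il25 and Gnat3 were at 0.

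Other matrix metalloproteinases and inhibitors were higher in 2 of 19 cases and lower in 5, against 1 and 0 of 13 in the stricter comparison and 1 and 2 of 17 without tumour 2. Over all tested genes 5.81% were higher and 7.37% lower. Adamts1, a secreted protease, was at 139, 88.1 and 27.3 CPM against 70.1, 30.2 and 18.2 CPM (1.02 ± 0.16, adjusted p = 0.0051) and kept its call in the stricter comparison. Timp1, a metalloproteinase inhibitor, was at 124, 313 and 61.9 against 174, 1115 and 149 CPM (-1.23 ± 0.21), but at -0.09 with an adjusted p of 0.76 there. Of 13 known substrates and docking proteins, Spp1 was higher and 4 were lower, among them Igfbp3, an IGF-binding protein (19.2, 30.3 and 15.3 against 41.3, 79.8 and 69.7 CPM, -1.64 ± 0.18), and Sdc1, the syndecan cleaved by MMP7 at epithelial surfaces (347, 308 and 266 against 465, 419.5 and 527 CPM, -0.64 ± 0.13). Igfbp3 kept its call in each of these comparisons, and Sdc1 lost it without tumour 2 (adjusted p = 0.057) and without tumour 3 (adjusted p = 0.1). Cd44, a surface receptor that anchors MMP7, was not called (424, 318 and 195 against 407, 474 and 487 CPM, adjusted p = 0.069).

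The second comparison set the Mmp7-high cells against the gastric-type cells of the same epithelial gate (463, 205 and 276 cells with no Mmp7 UMI). These cells passed the Epcam, Krt18, Dcn and Col3a1 limits but had Gkn1 and Gkn2 at 10 or more per 10000 UMIs, or at least 2 UMIs of Muc6 or Muc5ac. In edgeR 1543 of 10697 genes (14.4%) were called, 717 (6.7%) higher and 826 (7.72%) lower in Mmp7-high cells. Without tumour 2, 321 of 11011 were called, 139 higher and 182 lower. The Mmp7-high sums are shared with the first comparison, so the values of both stand side by side and are not counted as separate support. At least 2 Vim UMIs were present in 12.5%, 21.5% and 21.4% of gastric-type cells. Median depth was 11250, 8925 and 8738 UMIs.

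All 10 foveolar genes tested were lower in Mmp7-high cells, and 13 of 20 genes of the classical pancreatic tumour type were lower with 1 higher. Over all tested genes 7.72% were lower and 6.7% higher. The gastric genes that defined the group are themselves of this kind, so the direction follows from the gate. Tff1 was at 346, 222 and 343 CPM against 19511, 18137 and 17009 CPM (-6.09 ± 0.18), and Agr2, a disulfide isomerase of mucous cells, at 166, 305 and 82.8 against 2299, 3064 and 823 CPM (-3.63 ± 0.15). Of these lists 8 of 10 and 7 of 21 genes were lower without tumour 2. NRF2 targets and aldo-keto reductases were lower in 10 of 25 cases and higher in 0, and in 5 of 25 without tumour 2. Gsta1, a glutathione transferase, was at 46.8, 18.6 and 83.0 against 164, 162 and 328 CPM (-2.39 ± 0.21, adjusted p = 1.5e-05), and Slc7a11 at 7.29, 3.21 and 8.25 against 30.8, 11.2 and 54.5 CPM (-2.53 ± 0.23). The Mmp7-high cells were therefore low in Slc7a11 in both comparisons, each with its own adjusted p of 0.0021 and 2.1e-05.

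Of 10 complement genes tested against gastric-type cells 3 were higher and 0 lower (2 of 11 without tumour 2), and of 12 antimicrobial genes 3 were higher and 3 lower, with a median log2 fold change of -0.05 against 0.02 for all genes. Over all tested genes 6.7% were higher and 7.72% lower. C3 was at 42.9, 10.2 and 21.2 CPM in gastric-type cells (2.38 ± 0.22, adjusted p = 2.4e-05) and Reg3g at 112, 229.5 and 105 CPM (2.09 ± 0.13, adjusted p = 1.8e-06). Slpi (26.2, 11.7 and 16.7 CPM, 1.77 ± 0.17) and Cd14 (73.5, 63.1 and 29.7 CPM, 1.84 ± 0.13) were also lower there. These 4 genes kept their calls without each tumour in turn, and their 3 levels did not overlap between the groups, as was so for 14.2% of all tested genes in the higher and 5.13% in the lower direction. The hydrogen peroxide producing oxidase Duox2 was the reverse, at 31.1, 33.9 and 13.4 CPM in Mmp7-high cells and 97.3, 78.9 and 28.5 CPM in gastric-type cells (-1.49 ± 0.16, adjusted p = 9.5e-05), and its maturation factor Duoxa2 followed (53.3, 59.9 and 54.8 against 198, 107 and 80.2 CPM), although Duoxa2 lost its call without tumour 2 (adjusted p = 0.11). Il33, a nuclear alarmin, was lower in Mmp7-high cells as well (9.20, 8.21 and 2.67 against 91.5, 45.8 and 7.73 CPM, -2.72 ± 0.28, adjusted p = 6.1e-05).

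Of NF-kB genes and chemokines, 7 of 19 and 5 of 12 were higher and 1 lower in each, but 3 of 17 and 2 of 13 were higher without tumour 2. Over all tested genes 6.7% were higher and 7.72% lower, and 139 of 11011 were higher without tumour 2. Cxcl5, a neutrophil attractant, was at 167, 318 and 60.9 CPM against 48.4, 61.1 and 8.54 CPM (2.07 ± 0.19, adjusted p = 2.4e-05). Cxcl1, which did not pass against Mmp7-0 cells, was at 51.0, 13.2 and 21.8 against 16.7, 3.56 and 5.29 CPM here (1.60 ± 0.21, adjusted p = 0.0004). Ltb, lymphotoxin beta, a ligand that organises lymphoid tissue, was at 55.6, 36.4 and 7.33 against 4.58, 3.05 and 1.63 CPM (3.20 ± 0.28, adjusted p = 1.5e-05), with its lowest Mmp7-high level in tumour 3. YAP and TEAD targets were higher in 6 of 12 cases and lower in 0 (2 of 12 without tumour 2). Among them Ctgf, a secreted matricellular protein, was at 101, 122 and 92.1 against 28.6, 55.5 and 43.1 CPM (1.19 ± 0.16, adjusted p = 0.00037).

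**Figure D5:**
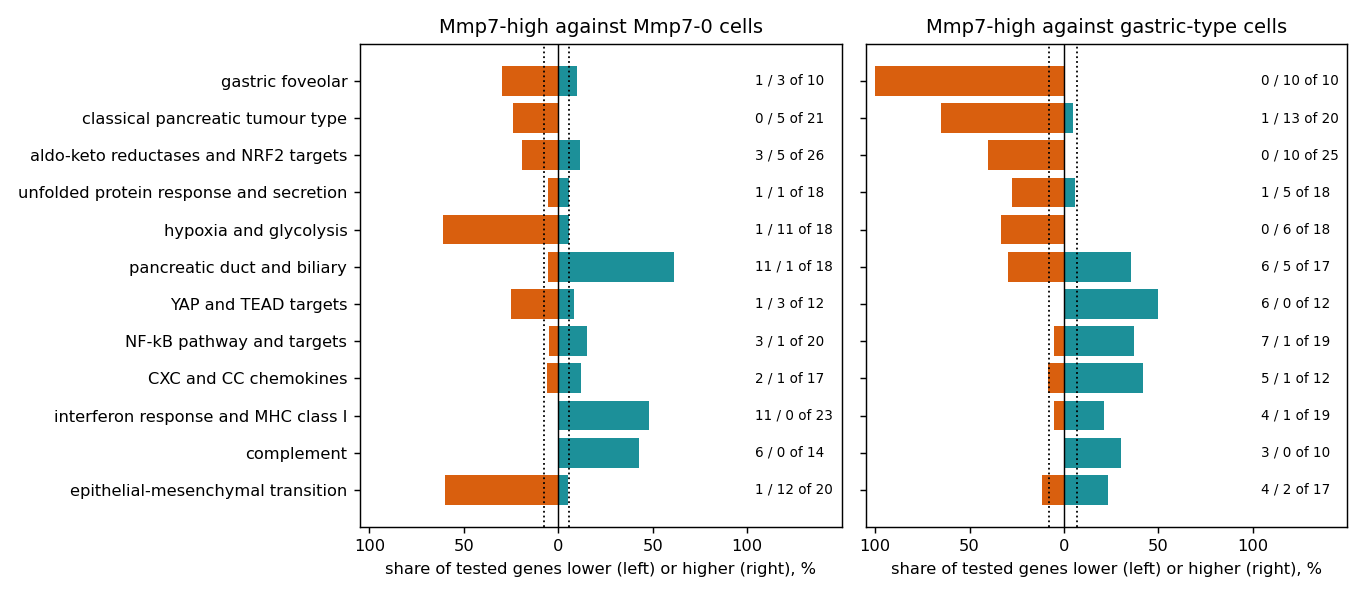
Share of tested genes of 12 gene lists called higher (right) or lower (left) in Mmp7-high cells against Mmp7-0 cells and against gastric-type cells, in percent, with the counts higher / lower of tested at the right. Dotted lines mark the shares of all tested genes (5.81% and 7.37%, and 6.7% and 7.72%); foveolar genes are lower in 10 of 10 cases against gastric-type cells, and duct genes higher in 11 of 18 against Mmp7-0 cells.

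The duct genes divided in the comparison with gastric-type cells, with 6 of 17 higher and 5 lower, and 1 and 4 without tumour 2. Over all tested genes 6.7% were higher and 7.72% lower. Spp1 was at 23602, 15126 and 13471 CPM against 4549.8, 4291 and 1722 CPM (2.23 ± 0.19, adjusted p = 1.5e-05), and Pkhd1 at 51.0, 23.2 and 20.6 against 7.88, 4.07 and 8.95 CPM (1.98 ± 0.27). Without tumour 2, Spp1 kept its call and Pkhd1 had an adjusted p of 0.065. Cftr, the chloride channel of the duct, was lower in Mmp7-high cells (99.7, 81.4 and 17.7 against 294, 243 and 40.3 CPM, -1.62 ± 0.14, adjusted p = 1.8e-05), as was the water channel Aqp5 (57.5, 157 and 44.5 against 173, 272 and 84.2 CPM, -1.25 ± 0.17). Against Mmp7-0 cells, Aqp5 was on the other side (46.9, 54.4 and 22.7 CPM, 0.94 ± 0.21), so its level in Mmp7-high cells lay between the other groups within each tumour; that second call was lost in the stricter comparison (adjusted p = 0.25), without tumour 2 (adjusted p = 0.15) and without tumour 3 (adjusted p = 0.063). Fn1 was higher here (86.2, 176 and 96.8 CPM in gastric-type cells, 1.84 ± 0.13, adjusted p = 4.5e-06) and also lay between them. Gc, the vitamin D binding protein, was at 71.3, 47.8 and 18.4 against 1.28, 3.05 and 1.22 CPM (4.69 ± 0.33, adjusted p = 3.5e-06), and the inflammatory caspase gene Casp4 was at 33.0, 12.8 and 8.25 against 0.733, 1.02 and 0.407 CPM (4.67 ± 0.43, adjusted p = 2.4e-05).

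The authors' deposited table of 19 clusters gives a log2 fold change for each gene and cluster. In the authors' deposited table, all 5 marker genes had their highest log2 fold change in cluster 1 (Mmp7 4.70, Akr1b7 4.20, Lcn2 3.81, Dmbt1 2.93 and Sftpd 2.93). The markers were chosen with these data in view and the table comes from the same tumours, so this is a description only. The log2 fold change of Lcn2 was nearly as high in cluster 17 of the authors' deposited table (3.24). Its mean count was higher there, at 44.9 UMIs against 31.2 in cluster 1. Dmbt1 (2.59) and Sftpd (2.34) had their next highest log2 fold change in cluster 7. Reg3g (3.16) and Ltf (2.92) had their highest value in that cluster 7 of the authors' deposited table, and C3 (4.17) in cluster 9. The deposited files used here do not tie single cells to these clusters.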

How the data were processed

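RNA of sorted cells of 3 tumours was read by 10x 3' version 2 libraries. Per the labels and the submitters' processing notes, the authors made UMI counts per gene and cell with Cell Ranger 2.1.1 and used Seurat 3.0; the deposited count matrix holds raw whole-number counts with the tumour in each barcode's suffix. The authors' deposited cluster table gives log2 fold changes and p-values adjusted by the authors, per the file headers; the sources used here name neither the genome build nor the test. Gates were applied to the counts as deposited, and counts were summed per tumour and gate. Sums were tested with edgeR 4.0.16 in R 4.3.3 (quasi-likelihood, TMM factors, filterByExpr, tumour as block, Benjamini-Hochberg 0.05), and the script was tested on simulated data. There 9.84% of called genes were false in the first comparison and 7.69% in the second, both more than the 0.05 threshold aims at. Of simulated 2-fold changes 74% and 72% were recovered, and of 4-fold changes 91% and 96%. DESeq2 1.42.0, other size factors, no filter, no block, each tumour left out, Scrublet doublets left out, matched depth, thinning to 3000 UMIs and other Mmp7 limits were alternatives. A further 3 gates (acinar, other-lineage or Vim, and Krt19) were chosen after seeing the data.

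Sums of the same tumour deviated together, with a correlation of 0.516 to 0.762 over the pairs of tumours' gates, and both gates of a tumour come from 1 library, so the tumour pairs them. Members, gene lists and markers were chosen with earlier results of these data known. Named genes were the 12 largest changes in each direction among called genes of the same sign in 3 tumours and with at least 10 CPM, up to 4 called genes of each list, and genes needed to account for a list. Similar genes (the Reg, H2 and pancreatic enzyme families) may share reads. A few genes are not reported here.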

Additional observations from a re-analysis of the deposited data

How the results depend on the processing

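Against Mmp7-0 cells the 1752 calls (772 higher, 980 lower) became 1068 (450 and 618) at matched depth, 928 (351 and 577) after thinning to 3000 UMIs and 634 (301 and 333) with cells holding other-lineage or Vim UMIs left out. With no replicate block 1 gene was called, 0 higher and 1 lower, with 1218 genes below an unadjusted p of 0.05. Leaving out 1 tumour gave 636 to 2826 calls, 262 to 1323 higher and 374 to 1503 lower, the lowest without tumour 2. Against gastric-type cells the 1543 calls (717 and 826) became 784 (321 and 463) in DESeq2 and 650 (275 and 375) after thinning, and 469 were higher at matched depth. With no replicate block 28 were called (6 and 22). Leaving out 1 tumour gave 321 to 1822 calls, 139 to 826 higher and 182 to 996 lower, again lowest without tumour 2.

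Of the genes named against Mmp7-0 cells, Ghrl (0.2251), Zg16 (0.0028), Ctrb1 (0.2972) and Cel (0.0814) turned to a log2 fold change above 0 with other-lineage or Vim cells left out, and Prss2 (0.0913) and Ctrb1 (0.4904) with acinar cells left out. Zg16, Ctrb1, Cel and Prss2 were themselves among the genes used to leave out cells. The cause was not tested.

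The share of Mmp7-high cells was 9.03%, 9.96% and 42.6% after thinning and 9.17%, 11.1% and 42.3% with at least 4 Mmp7 UMIs. Leaving out 1 tumour moved its mean between 16.4% and 34.0%. Sftpd was seen in 57.7% of Mmp7-high cells (mean of 3 tumours) without thinning. Only 3 tumours, of unequal numbers of cells, limit the tests.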
